A study of Mus musculus with 2 samples.

Results

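Macrophage and monocyte markers, the genes that name these phagocytes in mixed tissue, were followed on 2 arrays of mouse RNA labelled as from primary keratinocytes. The 10 genes were Csf1r, Cd163, Itgam, Adgre1, Cd68, Mrc1, Lyz2, Cd14, Fcgr3 and C1qa. Their probes were found on the arrays by the RefSeq accession of each non-control probe, without use of any signal. The genes themselves were chosen with earlier results of these data known. Of the 10 genes, 9 had a probe, among 20144 genes with a probe in all, and these 9 had 14 probes; all 9 were well above background on both arrays, as were 70.2% of the 20144 genes. No probe accession was paired with Cd68 in the gene table used, so no level of Cd68 is given, which does not show that the arrays lack a probe for it, since older accessions on the arrays are not all in that table.

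RNA came from cells labelled P3 primary keratinocytes, which form the epidermis. The Rac1/Rac3-DKO group, labelled as lacking both small GTPases Rac1 and Rac3, had 1 array, and the Rac3-KO group, which the labels call the control, had 1 array. Loss of Rac3 is thus shared by both groups, and neither is wild type. The promoter driving any conditional deletion, the number of mice and their sex are not given in the sources used here. With 1 array per genotype no difference had a replicate check, no test between genotypes was possible, and the errors given below are technical.

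Macrophages and monocytes are myeloid cells that engulf debris, pathogens and dying cells. Their survival depends on the receptor encoded by Csf1r, which binds the growth factors Csf1 and Il34, and in skin the epidermis is a known source of Il34. Resident dermal macrophages carry the scavenger receptors Cd163 and Mrc1, while Itgam, Fcgr3 and Cd14 are shared with monocytes and neutrophils. None of these genes is a gene of keratinocyte identity.

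On the DKO-labelled and Rac3-KO arrays, 52.9% and 56.9% of 55678 probes were well above background by the scanner software's flag, and no spot was saturated. A level here is the log2 processed signal minus the array's 75th percentile, which was a signal of 354 on the DKO-labelled array and 705 on the Rac3-KO array. Over the 14145 genes well above background on both arrays the median log2 difference, DKO-labelled minus Rac3-KO, was -0.01 after this scaling and -0.9999 before it. Spike-in RNA differed by 1.07 before scaling, so scaling to the spike-ins moved the median of all genes to -2.07, and every difference below is relative to the 75th percentile unless stated. Rac1 itself had levels of 5.10 on the DKO-labelled array and 4.82 on the Rac3-KO array, a difference of 0.28, and Rac3 differed by 0.24. Neither probe was placed relative to a deleted exon, so neither bears out or contradicts a label, and the array is called DKO-labelled throughout.

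All 9 measured markers were higher on the DKO-labelled array relative to the 75th percentile, beside 49.5% of all measured genes, while 8 of them were lower when the arrays were scaled to the spike-ins. The 9 differences ranged from 0.44 for Cd14 to 2.19 for Cd163, with a median of 1.16. Of the 9 genes 5 passed 2-fold upward and 0 downward, beside 7.71% and 6.62% of all measured genes. At 1.5-fold 8 of the 9 were higher, beside 18.2% of all measured genes, and at 3-fold only Cd163 was, beside 2.29%. Counted by probe, 7 of the 13 usable marker probes passed 2-fold upward, beside 7.55% of 18413 probes of named genes. Each of the 9 differences exceeded 1.96 times the software's signal error, as did 24.2% of all measured genes in the same direction. The shares of all measured genes at least 2-fold higher and lower, 7.71% and 6.62%, stand beside every list count given below as well. On the spike-in scale every list median given below falls under 0 except that of striated muscle. In bulk RNA a higher level from more cells of a type cannot be told apart from more RNA per cell.

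**Figure D1:**
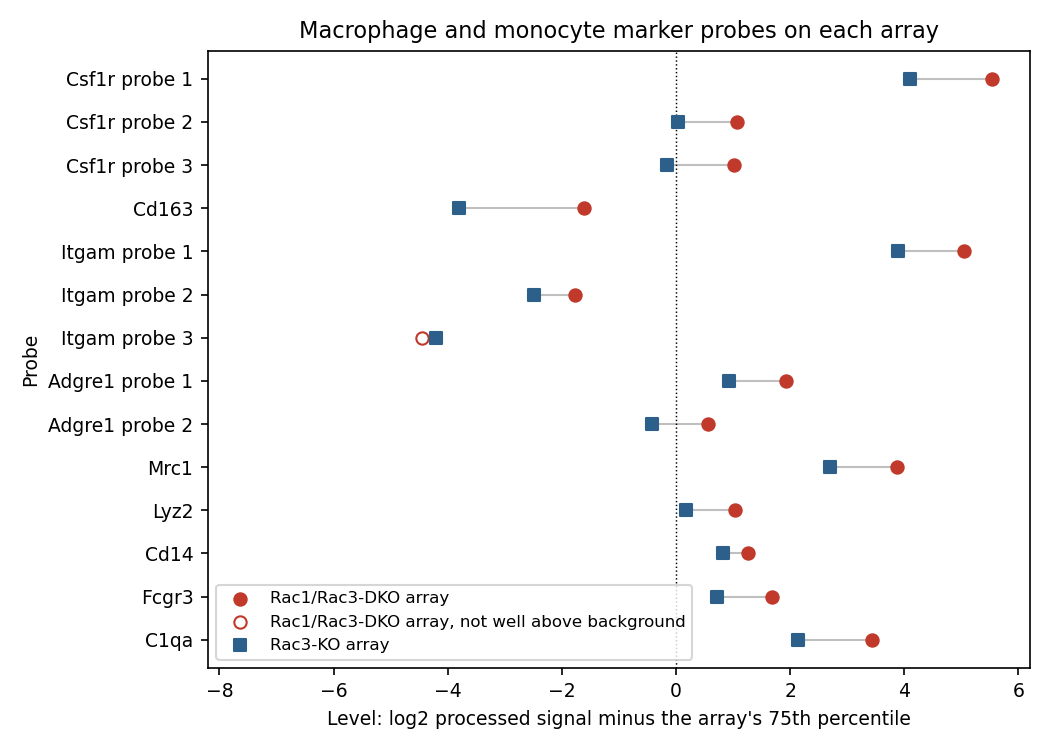
Levels of the 14 marker probes on the DKO-labelled array (circles) and the Rac3-KO array (squares), as log2 processed signal minus the array's 75th percentile, with 1 array per group. In 13 probes the circle lies to the right of the square; the remaining Itgam probe did not clear the background on the DKO-labelled array (open circle). Levels of different probes cannot be set against each other.

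Before scaling, the processed signals of most markers were close on both arrays, those of Cd163 and Cd14 least so. Among the 13 probes well above background on both arrays, the signal on the DKO-labelled array was 0.683 to 2.29 times that on the Rac3-KO array, and it was the brighter in 7. The median unscaled log2 ratio of the 9 genes was 0.17, against -0.9999 over all measured genes. At their median the markers thus kept about the same brightness on an array on which the typical gene was dimmer. Spike-in RNA was brighter on that array, by 1.07 on the log2 scale, so like brightness does not show like amounts of RNA. All 9 markers lay above the median of all measured genes in each of the 12 alternative settings computed. Settings that only shift each array by a constant, the spike-in and unscaled ones among them, could not change this, because all genes move together. With quantile normalization, loess and normexp, which could change it, the lowest marker lay 0.50, 0.47 and 0.32 above that median.

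**Figure D2:**
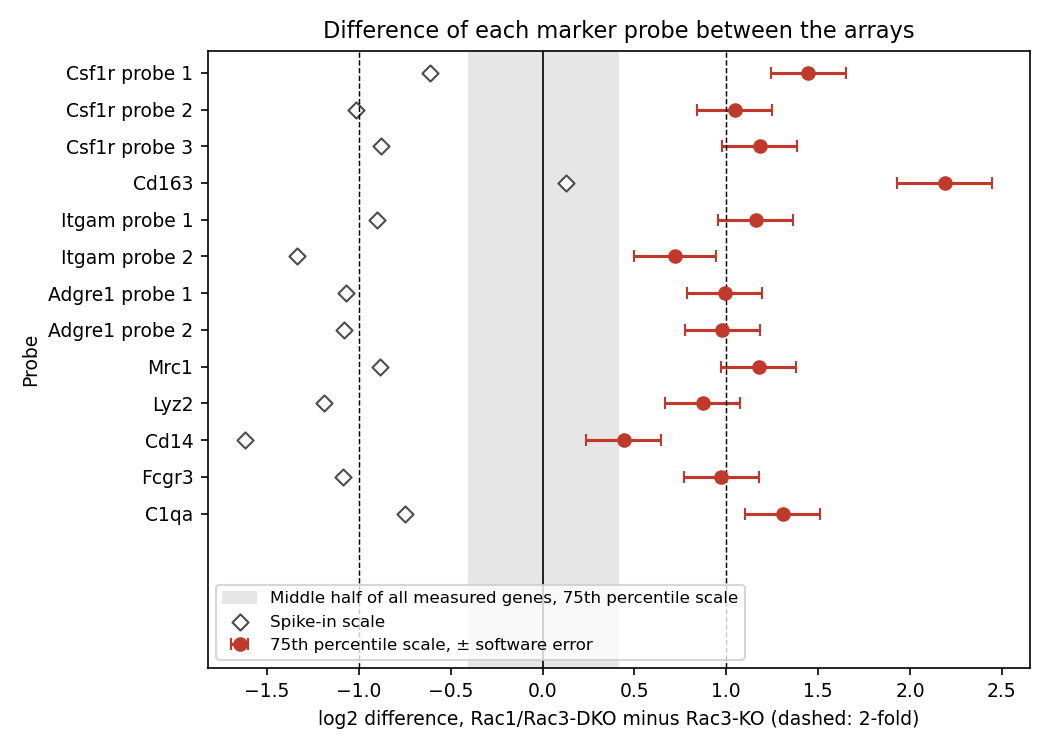
Log2 difference, DKO-labelled minus Rac3-KO, of the 13 marker probes well above background on both arrays. Filled points with bars give the difference relative to the 75th percentile ± the software's signal error, and open diamonds the same difference on the spike-in scale, where Cd163 alone stays above 0. The grey band spans the quartiles of all measured genes, -0.40 to 0.41, and every filled point lies to its right.

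Csf1r, the receptor tyrosine kinase that sustains the lineage, had 3 probes, all well above background on both arrays. The brightest had processed signals of 16524 on the DKO-labelled array and 12066 on the Rac3-KO array, or levels of 5.54 and 4.10. Its log2 difference was 1.45 with a software error of 0.20, a 2.72-fold higher level on the DKO-labelled array. The other two probes had signals of 749 and 718 on the DKO-labelled array, against 721 and 629.5 on the Rac3-KO array. They differed by 1.05 and 1.18, so all 3 probes were at least 2-fold higher after scaling, with an SD of 0.20 between them. Of all measured genes, 3.06% had a difference at least as high as that of the brightest probe.

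Relative to the 75th percentile the 2 ligands of this receptor went in opposite directions, while both were lower on the spike-in scale. Csf1, the ligand made by many stromal cells, had signals of 4464 on the DKO-labelled array and 4206 on the Rac3-KO array and differed by 1.08. Il34, the ligand of epidermis, had signals of 446 and 1775 on the same arrays and differed by -1.0003, just past 2-fold. It was the only gene of the Csf1 axis list at least 2-fold lower. Spi1, which encodes the myeloid transcription factor PU.1, had low signals of 74.6 on the DKO-labelled array and 53.4 on the Rac3-KO array and differed by 1.48, with a software error of 0.26. Csf2, another myeloid growth factor, was detected with a signal of 29.6 on the Rac3-KO array and was not well above background on the DKO-labelled one. It gives no fold, because its level on the Rac3-KO array lay below the lowest level that counted as well above background on the other array. Across the 13 measured genes of this list, which held growth factors, their receptors and lineage transcription factors, 2 passed 2-fold upward and 1 downward, with a median of 0.17. Keratinocyte genes, with a median of -1.57, moved the same way as Il34, and their part in that difference was not tested.

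Cd163, the scavenger receptor for haemoglobin bound to haptoglobin, had the highest difference of the 9 genes. Its single probe gave 116 on the DKO-labelled array and 50.7 on the Rac3-KO array, both well above background, where the lowest such signals were 20.1 and 23.4. The log2 difference was 2.19 with a software error of 0.26, or 4.56-fold, and 0.961% of all measured genes lay at least as high. It was also the single marker still above 0 on the spike-in scale, at 0.13. Background correction by normexp lowered the difference to 1.46. Hmox1, the haem-degrading enzyme, differed by 2.80, the highest value among the activation genes listed. Red cell genes, the source of haemoglobin RNA, had a median of 0.75 on the same arrays.

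Mrc1, the mannose receptor of tissue macrophages, had a single probe with signals of 5212 on the DKO-labelled array and 4589 on the Rac3-KO array. It differed by 1.18 with a software error of 0.20, a 2.26-fold higher level. Adgre1, an adhesion receptor that serves as the classic surface marker of mouse macrophages, had a pair of probes that gave close values. The brighter gave a signal of 1345 on each array and the dimmer 525 on the DKO-labelled array and 530.1 on the Rac3-KO array. Their differences were 0.99 and 0.98, just under 2-fold, so that Adgre1 had the same brightness before scaling and was 1.99-fold higher after it.

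**Figure D3:**
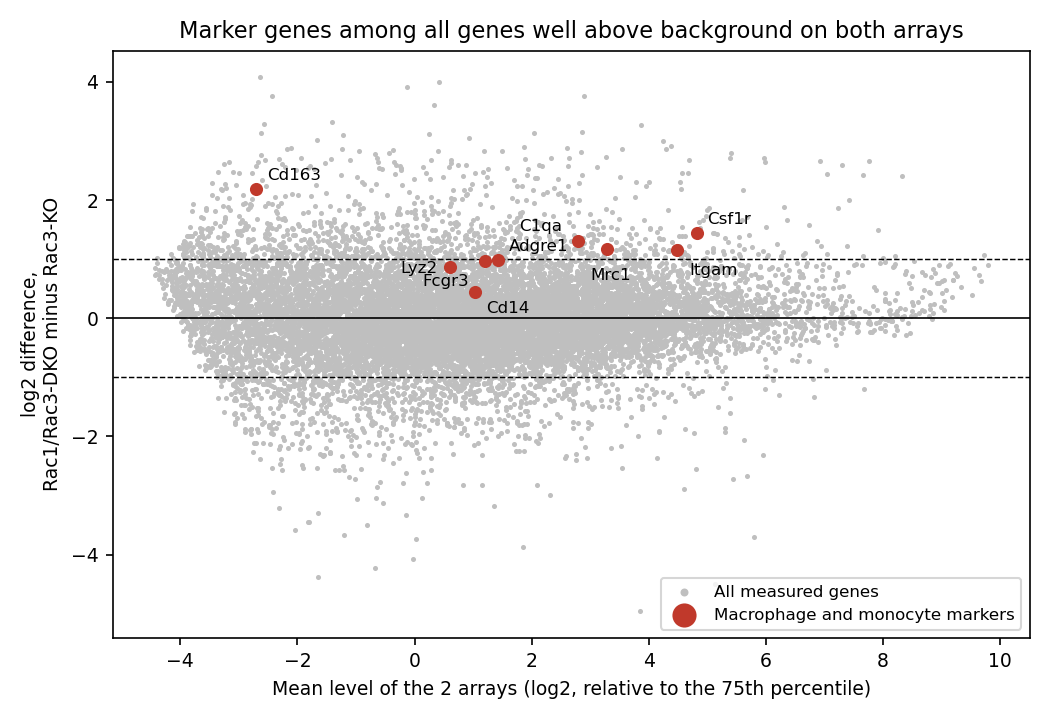
Log2 difference, DKO-labelled minus Rac3-KO, against the mean level of the 2 arrays for the 14145 genes well above background on both arrays (grey) and the 9 markers (red), each gene at its brightest probe. Dashed lines mark 2-fold. The markers lie above 0 from dim (Cd163) to bright (Csf1r, Itgam) on this scale; on the spike-in scale the whole cloud shifts down and 8 of the 9 fall below 0.

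Itgam, the alpha chain of complement receptor 3, known as CD11b, had 3 probes that did not behave alike. The brightest had signals of 11793 on the DKO-labelled array and 10493 on the Rac3-KO array and differed by 1.16 with a software error of 0.20, or 2.24-fold. A dimmer probe of the same transcript accession had signals of 104 and 125 on these arrays and differed by 0.72. The dimmest, designed on another Itgam transcript, had 16.3 on the DKO-labelled array, not well above background, and 38.1 on the Rac3-KO array. It gives no fold, because its level on the Rac3-KO array lay below the lowest level that counted as well above background on the other array. With the mean over the usable pair of probes Itgam differed by 0.94 and was no longer at least 2-fold higher. Its partner chain Itgb2 had signals of 274 on the DKO-labelled array and 399.6 on the Rac3-KO array and differed by 0.45.

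Promoter windows are shown for 3 markers whose levels were at least 2-fold higher, because the myeloid factor PU.1 is known to act through purine-rich sites near the start of many such genes that lack a TATA box. Windows run from 250 bases before to 50 after the start site, in the direction of the gene, from RefSeq on GRCm38.p6. Capitals mark the letters GAGGAA, the core of the PU box, or its reverse complement TTCCTC.
Mrc1, chr2:14229164-14229463, plus strand: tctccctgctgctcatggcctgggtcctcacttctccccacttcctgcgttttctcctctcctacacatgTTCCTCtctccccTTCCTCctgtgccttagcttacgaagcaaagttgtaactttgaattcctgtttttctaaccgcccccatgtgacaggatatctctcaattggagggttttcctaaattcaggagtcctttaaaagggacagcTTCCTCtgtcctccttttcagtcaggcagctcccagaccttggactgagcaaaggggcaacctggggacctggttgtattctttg
Itgam, chr7:128062390-128062689, plus strand: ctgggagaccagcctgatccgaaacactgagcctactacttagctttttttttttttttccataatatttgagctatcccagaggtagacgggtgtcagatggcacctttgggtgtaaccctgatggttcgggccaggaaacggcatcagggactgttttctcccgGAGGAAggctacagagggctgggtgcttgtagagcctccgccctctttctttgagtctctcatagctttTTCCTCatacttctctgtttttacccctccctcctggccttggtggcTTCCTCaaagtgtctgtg
Cd163, chr6:124304401-124304700, plus strand: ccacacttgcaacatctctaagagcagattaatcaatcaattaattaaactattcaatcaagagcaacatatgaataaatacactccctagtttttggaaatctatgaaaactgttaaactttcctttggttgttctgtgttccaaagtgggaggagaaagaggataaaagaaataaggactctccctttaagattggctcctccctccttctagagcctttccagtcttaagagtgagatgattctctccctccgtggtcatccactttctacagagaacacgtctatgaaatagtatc
In the Mrc1 window these letters stood 3 times, beginning 180, 167 and 35 bases upstream of the start site and each on the opposite strand. In the Itgam window they stood 3 times, 84 and 15 bases upstream and 32 bases downstream. The Cd163 window held none. Windows were examined for 6 of the 10 markers. For Adgre1 and C1qa the reference held none, and the windows of Csf1r and Cd14 were left out and are not reported here. Of the 6 markers, 4 held GAGGAA on either strand, both counts including Cd68, for which no level is given. Of all 32851 windows, from which none were left out, 28.3% did. None of the 6 held TATAAA on either strand, which 13.6% of all windows did. These matches describe letters in a window and show no binding.

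Fcgr3, a low-affinity receptor for immunoglobulin G, had signals of 1139 on the DKO-labelled array and 1154 on the Rac3-KO array. It differed by 0.97 with a software error of 0.20, or 1.96-fold. Its signalling adaptor Fcer1g, also used by mast cells, differed by 1.16, and the related adaptor Tyrobp by 0.96. The receptor and both adaptors thus all lay close to 2-fold.

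C1qa encodes a chain of C1q, which starts the classical complement pathway and is made largely by macrophages. Its probe had signals of 3855 on the DKO-labelled array and 3097 on the Rac3-KO array, and it differed by 1.31 with a software error of 0.20, or 2.48-fold. The genes of the other two chains moved with it. C1qb had signals of 5375 on the DKO-labelled array and 3978 on the Rac3-KO array and C1qc had 8016 and 5917, and each differed by 1.43. Among 13 measured genes of complement and Fc receptors and their adaptors, which exclude the markers themselves, all were above 0 and 6 were at least 2-fold higher, with a median of 0.96. Trem2, a lipid-sensing receptor of macrophages, was the highest at 1.62, followed by the complement C5a receptor gene C5ar1 at 1.51. Itgax, which encodes CD11c, was detected on the Rac3-KO array alone, and it was at least 1.35-fold lower in the DKO-labelled sample.

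Lyz2, the lysozyme of macrophages and granulocytes, had signals of 729 on the DKO-labelled array and 792 on the Rac3-KO array and differed by 0.87 with a software error of 0.20, or 1.83-fold. Lyz1, its close copy, had signals of 3754 on the DKO-labelled array and 3468 on the Rac3-KO array and differed by 1.11. The 2 genes are so alike that a probe may read both. Among 12 lysosomal genes, all measured, 4 passed 2-fold upward and 0 downward, with a median of 0.67. Laptm5, a lysosomal protein of white blood cells, differed by 1.28 and the protease gene Lgmn by 1.12.

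Cd14, the co-receptor that hands bacterial lipopolysaccharide to the Tlr4 complex, had the lowest difference of the 9 genes. Its signals were 847 on the DKO-labelled array and 1241 on the Rac3-KO array, a log2 difference of 0.44 with a software error of 0.20, or 1.36-fold. Of all measured genes 23.7% lay at least as high, so that Cd14 stood close to the upper quartile of all genes at 0.41. Its partner Tlr4 differed by 1.42 and the Tlr4 cofactor Ly96 by 0.35. Among 11 measured Toll-like receptor genes and adaptors 6 passed 2-fold upward and 0 downward, with a median of 1.14, and the highest was Tlr7, a sensor of viral RNA, at 1.45. The 1 gene below 0 was the adaptor gene Ticam1, at -0.22, named after its value was seen.

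Genes of resident tissue macrophages and genes of circulating monocytes were listed apart. Among 18 measured scavenger and tissue macrophage genes 12 passed 2-fold upward and 0 downward, with a median of 1.11. The chemokine gene Ccl24 and the scavenger receptor gene Marco were highest at 1.71 and 1.68, and Retnla, detected on the DKO-labelled array alone, was at least 3.91-fold higher there. Mgl2, a lectin gene of dermal macrophages and dendritic cells, was the 1 gene of this list below 0, at -0.56, and is named after its value was seen. Among 11 monocyte and recruitment genes the median was 0.49. Of these 1 passed 2-fold upward, near the 7.71% of all measured genes, and 0 downward, beside 6.62%. That gene, Ly6c1, at 1.55, is also known in endothelial cells. Of the 3 monocyte genes below 0, named after their values were seen, the chemokine receptor genes Cx3cr1 and Ccr2 differed by -0.82 and -0.49 and the nuclear receptor gene Nr4a1 by -0.13. The difference between the lists was not tested.

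Activation genes ranged from -0.49 to 2.80. Among 8 measured genes of classical and alternative activation 2 passed 2-fold upward and 0 downward, with a median of 0.31. Besides Hmox1, the interferon-induced chemokine gene Cxcl9 differed by 1.57. The chemokine gene Ccl17, detected on the DKO-labelled array alone, was at least 2.39-fold higher there. Of this list 2 genes were detected on the DKO-labelled array alone and 2 on the Rac3-KO array alone. The latter, named after their values were seen, were Il10, at least 1.09-fold lower in the DKO-labelled sample, and Arg1. Arg1 was too dim on the Rac3-KO array to give a fold. Among the measured genes the cytokine gene Tnf, at -0.49, and the chemokine gene Cxcl10, at -0.33, were the 2 below 0 and were named after their values were seen. Over the 7 macrophage lists together 85 different genes were measured, of which 33 (38.8%) passed 2-fold upward and 1 (1.18%) downward, with a median of 0.74, beside 7.71% and 6.62% of all measured genes. On this scale 72 of the 85 were above 0, and on the spike-in scale 1 was, Hmox1.

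**Figure D4:**
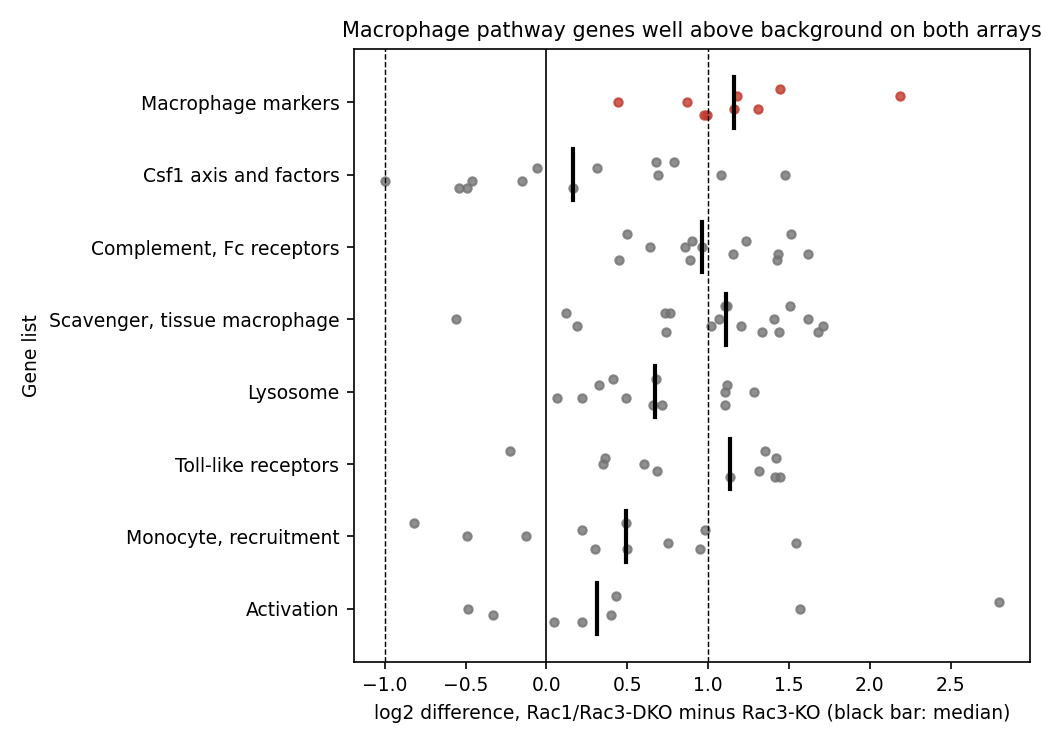
Log2 difference, DKO-labelled minus Rac3-KO and relative to the 75th percentile, of the 9 markers (red) and of 7 lists of macrophage pathway genes (grey), 1 point per gene well above background on both arrays. Black bars mark list medians, from 1.16 for the markers to 0.17 for the Csf1 axis, and dashed lines mark 2-fold; on the spike-in scale all points shift down together.

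Markers of other white blood cells that the samples could hold had medians between 0.35 and 1.06 on the same scale, beside 1.16 for the macrophage markers, and the differences between lists were not tested. Pan-leukocyte genes had a median of 0.56 over 12 genes, with 3 at least 2-fold higher. Ptprc, the common leukocyte antigen CD45, had signals of 159 on the DKO-labelled array and 243 on the Rac3-KO array and differed by 0.38. Neutrophil genes had a median of 0.35 over 9 genes, of which 6 were above 0 and 0 at least 2-fold apart either way, and their bright members S100a9 and Csf3r differed by 0.35 and 0.17. Their lowest, the granule gene Camp, named after its value was seen, differed by -0.71, and Mpo, the myeloperoxidase gene, was detected on the Rac3-KO array alone and was at least 1.64-fold lower in the DKO-labelled sample. Mast cell genes had a median of 0.65 over 8 genes, all 8 above 0 and 3 at least 2-fold higher. Fcer1a was the highest of them at 1.84, above every macrophage marker but Cd163, and Hdc differed by 1.08. The mast cell proteases Cpa3 and Mcpt4, both bright, differed by 0.26 and 1.14. Langerhans and dendritic cell genes had a median of 0.77 over 9 genes, of which 7 were above 0, 2 passed 2-fold upward and 1 downward. The lower one was Epcam, an adhesion gene that epithelial cells also express, at -1.81. Cd207, the defining gene of Langerhans cells, was not well above background on either array and is named after its values were seen. T and NK cell genes had a median of 0.60 over 7 genes and B cell genes 1.06 over 3. The T cell kinase gene Lck went the other way, at -1.23. Osteoclast genes, whose cells share a myeloid precursor with macrophages, had a median of 0.75 over 5 genes, with the bright acid phosphatase gene Acp5 at -0.64.

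Marker genes of other tissues differed too, and the keratinocyte genes went against them. Over 12 fibroblast genes the median was 0.83, with 11 above 0 and 4 at least 2-fold higher. Over 12 endothelial genes the median was 0.60, with 11 above 0 and 2 at least 2-fold higher. Over 11 adipocyte genes the median was 0.76, with all 11 above 0 and 2 at least 2-fold higher. Over 6 red cell genes the median was 0.75, with all 6 above 0 and 1 at least 2-fold higher. In these lists the red cell gene Slc4a1, at 2.03, and the adipocyte gene Pnpla2, at 1.86, were above every macrophage marker but Cd163. Striated muscle genes had a median of 2.48 over 15 genes, 14 of them at least 2-fold higher. All 14 measured keratinocyte genes were well above background on both arrays and below 0, 10 of them at least 2-fold lower, with a median of -1.57. Their summed level on a linear scale, in units of the 75th percentile signal and weighted towards bright probes, was 313 on the DKO-labelled array and 1065 on the Rac3-KO array. On the same arrays the sum was 4195 and 2228 for fibroblast genes, 2528 and 462 for striated muscle and 1882 and 1076 for red cells. For adipocyte genes it was 396 and 232 and for endothelial genes 77.5 and 49.2. Sums of different lists rest on different probes, so they do not give the share of a cell type. The part of a different cell make-up in the marker differences was not tested, and with 1 array per genotype sample and genotype cannot be told apart.

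**Figure D5:**
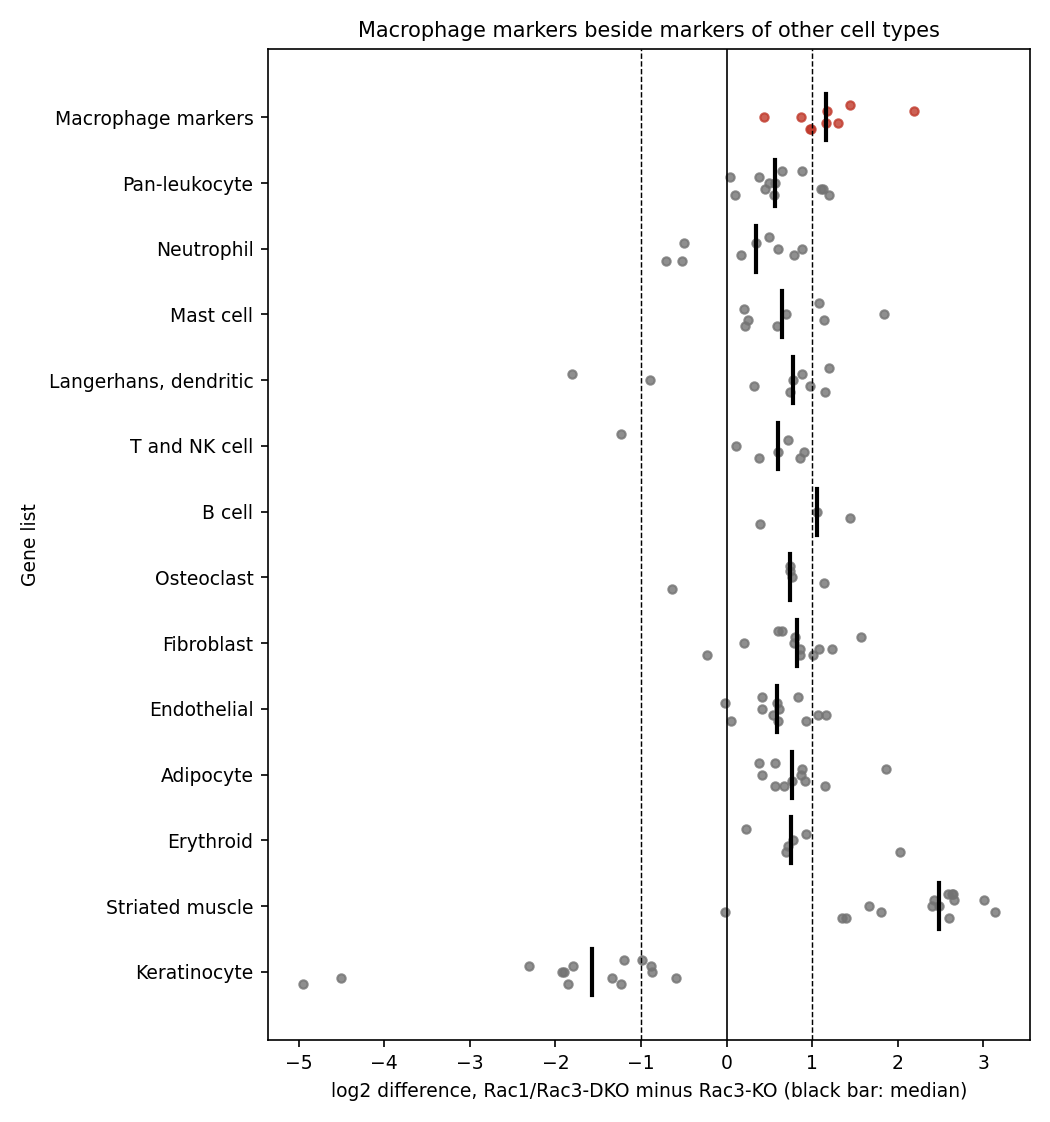
Log2 difference, DKO-labelled minus Rac3-KO and relative to the 75th percentile, of the 9 macrophage and monocyte markers (red) and of marker genes of 13 other groups (grey), 1 point per gene well above background on both arrays. Black bars mark medians, 1.16 for the macrophage markers, 2.48 for striated muscle and -1.57 for keratinocytes; on the spike-in scale all points shift down together.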

How the data were processed

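RNA of 1 Rac1/Rac3-DKO and 1 Rac3-KO sample was hybridised to 1-colour Agilent arrays on the same slide and in the same scan, per the file headers. The deposited scanner files hold spot intensity from Feature Extraction 10.10.1.1, not scaled between arrays, per the file headers, whereas the submitters' processing notes name version 9.1. The 0 or 1 flags (well above background, saturated, outlier) and other marks are the software's, as deposited. The authors' deposited value table, on a log2 scale, matches the log2 processed signals after an array-wide constant near the 75th percentile is taken off, for 100% of probes with 1 spot within 0.002, so its scale and centring are known and a 1-colour level has no direction to settle. Its column medians are -3.62 for the DKO-labelled array and -3.72 for Rac3-KO.

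Control spots and outlier spots (190 on the DKO-labelled and 155 on the Rac3-KO array) were left out, log2 signals were averaged per probe, and each array's 75th percentile was subtracted. Accessions were matched without versions to the GRCm38.p6 RefSeq table, which gave names and no coordinates since the design is annotated on an earlier build, and 26580 probes received a gene name. A gene stands at its probe with the highest mean level and counts as measured when that probe is well above background on both arrays. For a gene detected on a single array, the fold is a lower bound, taken over whichever was greater on the dim array: that probe's level or the lowest detected level. No test was run, since each group has 1 array, and the number of arrays limits the precision. The software's signal error is the error given (median 0.20 on the log2 difference), and the root mean square SD between probes of a gene was 0.38.

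The markers and lists were chosen with earlier results of these data known. Genes named from a list are its 2 highest and 2 lowest at least 2-fold apart, up to 2 detected on a single array, direct partners of a marker, and the 2 brightest for other cell types, not all of which are printed. Likeness of pattern over 2 arrays names no gene. The mean spot signal was not used, and normexp with an offset of 50 ran on the median signals. The steps were tested on simulated data. Python 3.11.15, pandas 2.3.3, R 4.3.3 and limma 3.58.1 were used.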

Additional observations from a re-analysis of the deposited data

How the results depend on the processing

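Scaling was the choice that changed directions. Against the spike-ins the log2 differences were -0.61 for Csf1r, -0.90 for Itgam, -1.07 for Adgre1, -0.88 for Mrc1, -1.19 for Lyz2, -1.62 for Cd14, -1.09 for Fcgr3 and -0.75 for C1qa, with a median of -0.90, 0 genes at least 2-fold higher and 4 lower, beside 93.2% of all measured genes lower. With no scaling between the arrays, an alternative added after the data were seen, Adgre1, Lyz2, Cd14 and Fcgr3 differed by -0.00013, -0.12, -0.55 and -0.019, the median was 0.17 and 1 gene was at least 2-fold higher, beside 1.27% of all measured genes higher and 49.98% lower. Under the other 10 settings all 90 values of single markers stayed above 0, between 0.32 and 2.19. Normexp background correction lowered the median to 0.93, with 4 genes at least 2-fold higher beside 5.43% of all measured genes, and the mean over a gene's probes also left 4, beside 7.53%. At a threshold of 1.5-fold 8 genes were higher and at 3-fold 1, Cd163. Relative to the median of all measured genes the median of the markers was higher by 0.93 with normexp and by 1.17 as reported. No paired analysis was possible because each group has 1 array, and leaving out an array leaves no comparison. Dim probes limit the values of Cd163 and of the dimmer Itgam probes.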
